A study of Mus musculus with 12 samples.

Results

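The cytosolic ribosomal proteins were followed as mRNAs in mouse liver. They were taken from the deposited expression table by gene name: every symbol made of Rpl or Rps, a number and at most a letter and a further digit, together with Rplp0, Rplp1, Rplp2 and Rpsa, and without Rps3a3. The rule found 88 of 53796 genes, 53 of the large subunit and 35 of the small subunit. By the GENCODE M21 annotation and their names, 77 were standard ribosomal protein genes, 46 of the large and 31 of the small subunit. A further 6 were paralogs of standard genes (Rpl3l, Rpl7l1, Rpl10l, Rpl22l1, Rpl39l and Rps27l), and 5 were annotated as pseudogenes (Rpl6l, Rpl32l, Rps3a2, Rps4l and Rps12l1). Fau, which encodes a ribosomal protein fused to a ubiquitin-like protein, falls outside the naming rule and is given separately.

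The study sequenced total RNA from 12 liver libraries, 3 in each of 4 groups. RIPK1 D138N carries a mutation known to remove the kinase activity of RIPK1, a kinase that acts below the TNF receptors in cell death and inflammation. TNFR1/2 KO is labelled as lacking both receptors for TNF. WT is wild type, and Sham is wild type with a sham label. Sham is the one group with that label, and from the title of the series the remaining 3 are read as ischemic. All groups are liver, and no label used here gives the age, sex, breeding or time after ischemia. The mutants have no sham counterpart here, so what they differ in without ischemia cannot be told apart from how they respond to it. Nothing in the labels says whether repeats were separate animals, and p-values measure only the spread between these samples. In whole liver, fewer cells of a type and less RNA per cell cannot be told apart either. The WT and Sham columns could be tied to their group but not to a replicate number, and their libraries are called A, B and C.

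Several features of the libraries bear on the values. The table holds FPKM, fragments scaled by transcript length and library depth, with no counts, so no counting interval is given. The FPKM of all genes summed to 489348 to 518580 in RIPK1 D138N, 441296 to 512931 in TNFR1/2 KO, 288934 to 303514 in WT and 649373 to 750501 in Sham. Tnfrsf1a, the TNFR1 gene, was listed at 15.3, 21.9 and 18.4 FPKM in TNFR1/2 KO, against 34.9, 32.3 and 38.1 FPKM in WT. RIPK1 D138N libraries, which carry no such deletion by label, held Tnfrsf1a at 18.86, 20.98 and 19.44 FPKM. Tnfrsf1b, the TNFR2 gene, was at 7.22, 3.96 and 9.31 FPKM in TNFR1/2 KO, against 10.2, 8.13 and 10.2 FPKM in WT. Gene-level FPKM thus did not show a loss of either receptor mRNA in the libraries labelled TNFR1/2 KO, and every direction given for them rests on the label. Xist, an RNA whose level bears on sex, was at 20.1 and 23.4 FPKM in RIPK1 D138N replicates 2 and 3, and at 0.0215 FPKM in replicate 1. Libraries of the other groups held 0.0052 to 0.0824 FPKM of Xist, so RIPK1 D138N alone was mixed in this RNA. The summed FPKM of 8 hepatocyte markers, with Alb listed at 0 in all 12 libraries, was 20153 to 20470 in RIPK1 D138N, 19288 to 23497 in TNFR1/2 KO, 7603 to 9809 in WT and 32749 to 40389 in Sham. The summed FPKM of 5 erythroid markers was 890 to 1766 in RIPK1 D138N, 964 to 2004 in TNFR1/2 KO, 79.9 to 152.6 in WT and 166.5 to 316.8 in Sham. Each sum rests mostly on its highest genes, and not every marker followed it. Among the hepatocyte markers, Fgb held 1851, 1406 and 1934 FPKM in WT, above both mutants (706 to 1045 FPKM). Among the erythroid markers, Alas2 held 58.2, 12.4 and 10.2 FPKM in RIPK1 D138N, against 7.72 to 12.3 FPKM in WT. Marker lists of other cell types also varied between or within groups. For example, 9 neutrophil markers summed to 4.71 to 282 FPKM within WT. The part of any of these markers in the results below was not tested.

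The cytosolic ribosome is built from a small subunit, which reads the mRNA, and a large subunit, which joins the amino acids. Most standard proteins are present in a single copy per ribosome, and the subunits are assembled in the nucleolus before export. Many mRNAs of the translation machinery begin with a stretch of pyrimidines, the 5′ terminal oligopyrimidine (TOP) motif, through which the kinase complex mTORC1 is known to control their translation. Liver makes and secretes large amounts of protein and carries a high content of ribosomes.

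Pyrimidine stretches near the start were looked for in the RefSeq promoter table (GRCm38.p6), which held 64 of the 88 genes. The search asked for at least 8 consecutive C or T on the gene's own strand, from 20 bases before to 30 bases after the annotated start. Where a gene had several annotated starts, a run at any of them counted, for the family and for all genes alike. Such a run was present in 32 of 57 standard genes (56.1%), 21 of 34 of the large subunit (61.8%) and 11 of 23 of the small subunit (47.8%). Of all 27025 genes in the table, 5811 (21.5%) held one. The first 5 windows below belong to standard genes with a run and a high mean FPKM, and the last 3 to paralogs. The paralogs are shown because Rps27l and Rpl7l1 are described in detail below. Each window covers 15 bases before to 15 bases from the start, 5′ to 3′, with the longest run of C or T in capitals. Where a gene had several annotated starts, the start with the longest run is shown.
Rpl13a, chr7:45128731-45128760, minus strand: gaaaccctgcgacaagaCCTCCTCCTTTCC
Rps18, chr17:33955651-33955680, minus strand: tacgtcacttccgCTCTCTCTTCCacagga
Rps27, chr3:90213634-90213663, minus strand: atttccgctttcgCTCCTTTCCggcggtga
Rps24, chr14:24490663-24490692, plus strand: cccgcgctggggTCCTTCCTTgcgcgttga
Rps9, chr7:3704026-3704055, plus strand: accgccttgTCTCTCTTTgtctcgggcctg
Rps27l, chr9:66946071-66946100, plus strand: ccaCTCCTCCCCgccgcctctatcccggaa
Rpl22l1, chr3:28805493-28805522, plus strand: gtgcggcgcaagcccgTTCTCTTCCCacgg
Rpl7l1, chr17:46782642-46782671, minus strand: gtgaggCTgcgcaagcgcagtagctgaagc
The run in Rps27l lies upstream of the annotated start, and the longest run in the Rpl7l1 window is 2 bases. A run describes these letters only, since the annotated start can differ from the start used in liver.

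The 77 standard genes were among the most abundant mRNAs of every library. Averaged over the 12 libraries they spanned 132 to 1114 FPKM, with a median of 314 FPKM and quartiles of 243 and 414 FPKM. The median standard gene stood at percentile 96.9 to 98.6 of the genes with at least 1 FPKM in its library. Rpl41, which encodes a very short peptide of the large subunit, was the highest at 1114 FPKM on average. Rplp1, an acidic protein of the stalk that recruits elongation factors, averaged 1095 FPKM, and Rpl13a, a large-subunit protein, averaged 845 FPKM. Among the paralogs, Rps27l averaged 396 FPKM, Rpl22l1 102 FPKM and Rpl7l1 19.4 FPKM. Rpl10l, a paralog known from mouse testis, and Rps12l1 were listed at 0 in all 12 libraries. Rpl39l was listed at 0 in 10 libraries and Rpl3l, a paralog known from muscle, in 9, with highest values of 0.255 and 0.206 FPKM. These 4 genes did not reach 1 FPKM in 3 libraries and were not tested, which left 84 of the 88. The lowest tested genes were the pseudogenes Rpl32l, at 4.65 FPKM on average, and Rpl6l, at 7.12 FPKM, and Rps3a2, at 14.3 FPKM.

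**Figure D1:**
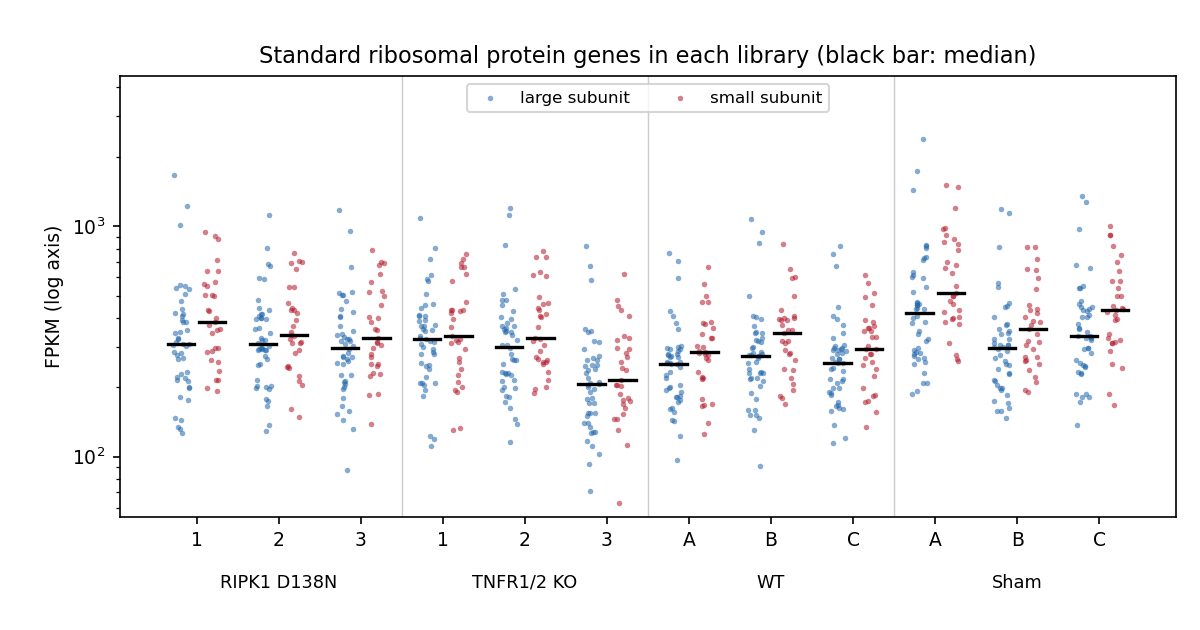
FPKM of each of the 77 standard ribosomal protein genes (points, log axis) in the 12 libraries, large and small subunit side by side, with the median as a black bar. The small-subunit median lies above the large-subunit median in every library; TNFR1/2 KO replicate 3 sits lowest and Sham library A highest.

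By summed FPKM, the large subunit stood at 1.20 to 1.38 times the small subunit across the libraries. The summed FPKM of the large subunit was 1.26, 1.35 and 1.29 times that of the small subunit in RIPK1 D138N, and 1.38, 1.30 and 1.37 times in TNFR1/2 KO. In WT the ratio was 1.30, 1.27 and 1.33, and in Sham 1.20, 1.26 and 1.24. All 3 Sham ratios were below all 3 WT and all 3 TNFR1/2 KO ratios, while RIPK1 D138N overlapped Sham. Per gene the order was the other way round, and the median large-subunit gene was below the median small-subunit gene in every library. The log2 ratio of these medians, large over small, was -0.32, -0.14 and -0.14 in RIPK1 D138N, -0.04, -0.13 and -0.07 in TNFR1/2 KO, -0.17, -0.33 and -0.20 in WT and -0.29, -0.28 and -0.38 in Sham. The 3 TNFR1/2 KO values were all nearer to 0 than the 3 WT values, while RIPK1 D138N overlapped WT and WT overlapped Sham.

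Summed over the 77 standard genes, the family reached 31025, 28480 and 27524 FPKM in RIPK1 D138N. It reached 28608, 28015 and 18705 FPKM in TNFR1/2 KO, 21927, 25304 and 22707 FPKM in WT, and 43973, 27970 and 33387 FPKM in Sham. By this sum WT was below every RIPK1 D138N and every Sham library. As a share of the FPKM of all genes, the order changed. The family took 5.98, 5.82 and 5.47% in RIPK1 D138N, 5.61, 5.46 and 4.24% in TNFR1/2 KO, 7.52, 8.34 and 7.86% in WT and 6.10, 4.31 and 4.45% in Sham. By share the 3 WT libraries were above all 9 others, since the FPKM of all genes summed to less in WT than in any other group.

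**Figure D2:**
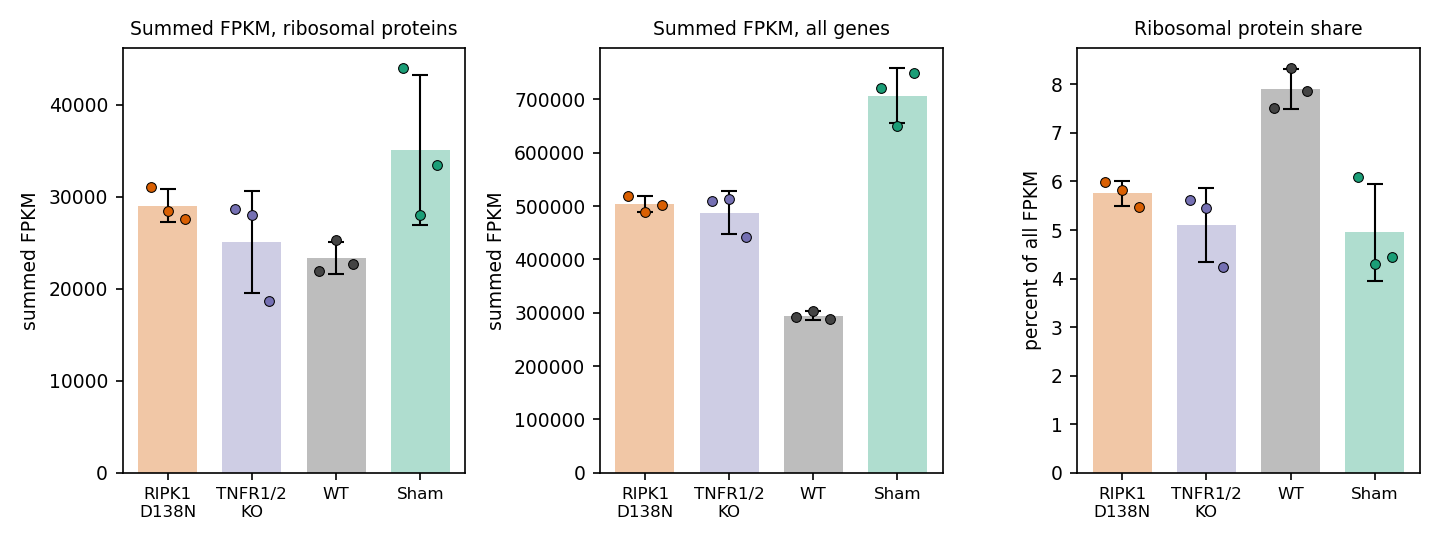
Left, summed FPKM of the 77 standard genes; middle, summed FPKM of all genes; right, the family's percent of all FPKM. Bars are group means, points the 3 libraries and error bars the SD: WT is the lowest group in the left and middle panels and the highest, at 7.52 to 8.34%, on the right.

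Individual libraries moved the whole family. Among Sham libraries, A held the highest value for 63 of the 77 standard genes, with a median ratio of 1.38 to the mean of the other 2, and B the lowest for 69. TNFR1/2 KO replicate 3 held the lowest value of its group for all 77, at a median ratio of 0.664. The comparisons below therefore give counts without these libraries where the counts change by more than 1.5 times. The share of all genes called without a library is not given beside these counts. They therefore cannot show that a change in count is particular to this family.

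The first comparison set WT, taken as ischemic, against Sham. In FPKM as deposited, 47 of the 84 tested genes were lower in WT and 0 were higher (limma on log2(FPKM + 1), Benjamini-Hochberg adjusted p under 0.05 over 11728 genes). Over all genes tested, 41.9% were called lower and 16.4% higher, and 0 of the 84 were higher at an unadjusted p under 0.05. The median difference was -0.56 on the log2 scale over the 84, beside -0.36 over all genes tested. By subunit, 22 of 46 standard large-subunit genes and 18 of 31 standard small-subunit genes were lower, with medians of -0.50 and -0.60. The direction of the family depended on the scaling: with each library rescaled to the same sum (TPM scale) 64 of the 84 were higher and 0 lower in WT, where 53.2% of all genes were higher, 10.1% lower and the median of all genes was 0.67. With libraries scaled by the median ratio over genes, a scaling that centres the typical gene, 3 were higher and 4 lower, beside 30.6% and 23.9% of all genes, and the family median was 0.01 beside 0.06 for all genes. Without Sham library A, 25 were lower and 1 higher in the deposited FPKM, and without WT library A 26 were lower.

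**Figure D3:**
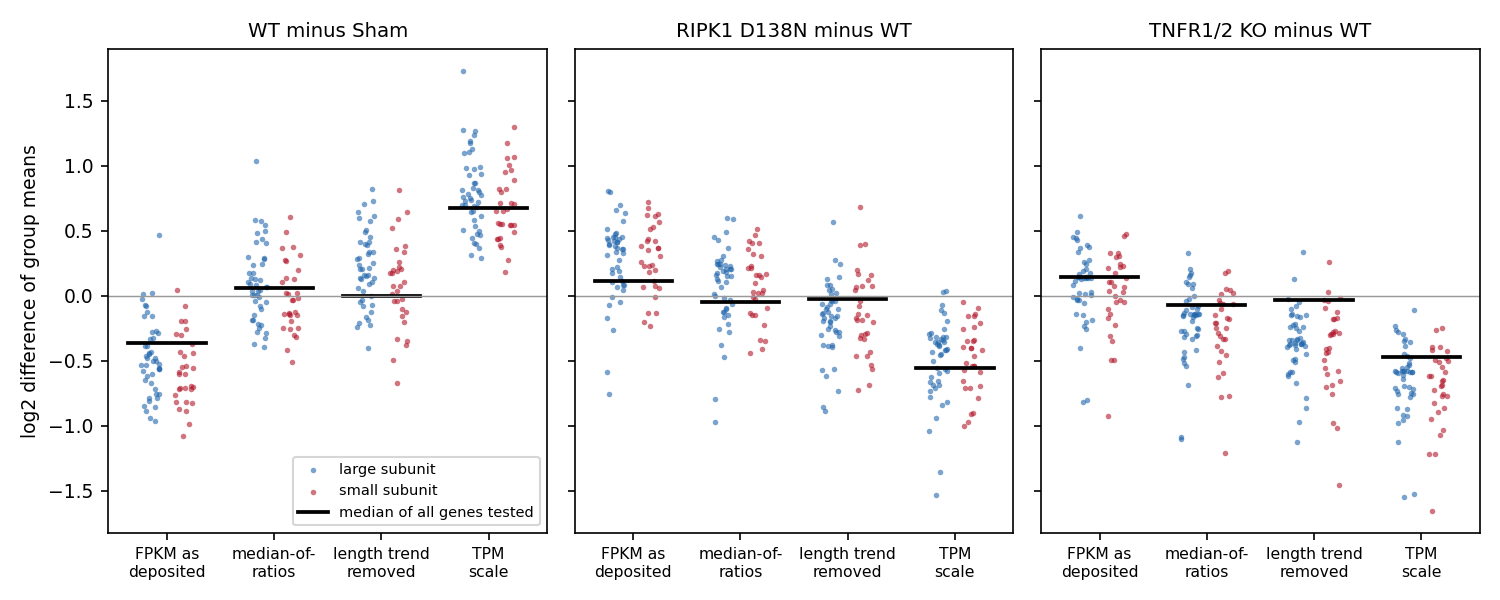
Log2 difference of group means for each standard gene (points; large subunit left, small subunit right) in 3 comparisons, under 4 scalings of the same table, with the median of all genes tested as a black bar. Most of the family lies below 0 for WT minus Sham in FPKM as deposited and above 0 on the TPM scale, and the family moves with the median of all genes. In both mutant comparisons most of it lies below 0 on the TPM scale.

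Of the 84 genes, 4 were lower in WT than in Sham under each of 5 scalings: the deposited FPKM, the TPM scale, the median ratio, a fit with the trend with transcript length removed, and a scaling to the mean of the standard genes themselves, added after seeing the data. They were the paralogs Rps27l and Rpl7l1 and the pseudogenes Rps4l and Rps3a2, each called in 4 of the 5 and not on the TPM scale. Rps18 and Rps27, small-subunit proteins, made up the rest of the 6 largest falls in deposited FPKM, and both differences turned positive, at 0.18 and 0.27, on the TPM scale. Rps18 held 470, 595 and 456 FPKM in WT, against 1478, 810 and 1005 FPKM in Sham. Rps27 held 496, 499 and 511 FPKM in WT, against 1504, 719 and 915 FPKM in Sham. In each the groups did not overlap, and Sham library A was the highest. Rps18 differed by -1.08 ± 0.25 (log2, SE, adjusted p = 0.00268) and Rps27 by -0.99 ± 0.27 (adjusted p = 0.00742).

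A few standard genes stood apart from the rest of the family in WT. Rpl12, a large-subunit protein at the base of the stalk, held 280, 274 and 290 FPKM in WT, against 266, 174 and 181 FPKM in Sham. All 3 WT libraries were above all 3 Sham libraries, opposite to most of the family, but the difference of 0.47 ± 0.23 did not pass the test (adjusted p = 0.0928). Scaled to the mean of the standard genes, Rpl12 was higher in WT by 0.98 ± 0.18 (adjusted p = 0.000433). On that scale Rpl10a and Rps4x, the X-linked small-subunit gene, were also higher, by 0.52 and 0.55 (adjusted p = 0.0266 and 0.0353), while Rps18, Rps27l, Rpl7l1, Rps4l and Rps3a2 were lower. Of all genes tested, 23.5% were called higher and 17.5% lower on that scale.

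Among the stalk genes, Rpsa and Rps6, some passed the test in WT against Sham and others did not. Whether they differed from each other was not tested. Scaled to the mean of the standard genes, none of them was called (limma adjusted p from 0.084 to 0.87). On that scale Rplp0 differed by 0.23, Rplp1 by -0.13, Rplp2 by 0.44, Rpsa by 0.31 and Rps6 by -0.04. The values that follow are in deposited FPKM. Rplp1 was at 769, 947 and 823 FPKM in WT, against 1438, 1184 and 1350 FPKM in Sham, and differed by -0.65 ± 0.19 (adjusted p = 0.0105). Rplp0, the stalk's anchor, was at 292, 285 and 328 FPKM in WT, against 459, 325 and 332 FPKM in Sham, and the groups overlapped. Rplp2, the partner of Rplp1, was at 253, 268 and 254 FPKM in WT, against 281, 241 and 297 FPKM in Sham, with a difference of -0.07 ± 0.24 (adjusted p = 0.816). Rpsa, a small-subunit protein also known as the laminin receptor precursor, did not pass the test either (-0.20 ± 0.20, adjusted p = 0.408). Rps6, the small-subunit protein phosphorylated by S6 kinase, was at 221, 237 and 223 FPKM in WT, against 385, 294 and 327 FPKM in Sham, without overlap. Its difference was -0.55 ± 0.18 (adjusted p = 0.0182), but it lost the call without Sham library A or WT library A, and on the TPM scale it reversed to 0.70.

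The second comparison set RIPK1 D138N against WT. In deposited FPKM, 15 of the 84 genes were higher and 1 lower in RIPK1 D138N, where 29.8% of all genes were higher and 21.9% lower. The median difference was 0.35 over the 84 and 0.11 over all genes. Of the standard genes, 7 of 46 large-subunit and 5 of 31 small-subunit genes were higher, with medians of 0.36 and 0.30. On the TPM scale the family turned over, with 38 lower and 1 higher and a median of -0.42, beside -0.55 for all genes, of which 48.1% were lower and 14.3% higher. With the median ratio 3 were higher and 2 lower, beside 25.2% and 29.7% of all genes. Without the 2 libraries that hold Xist, which leaves 1 RIPK1 D138N library assumed to vary like the other groups, 3 were higher and 0 lower. The count of 15 higher was 5 without RIPK1 D138N replicate 3, without WT library A or without WT library C, and 9 without RIPK1 D138N replicate 1.

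Rps27l and Rpl12 differed from WT in RIPK1 D138N under all 5 scalings and in opposite directions. Rpl12 held 176, 178 and 145 FPKM in RIPK1 D138N, against 280, 274 and 290 FPKM in WT. No library of one group reached the other, and the mean in RIPK1 D138N was 0.591 of that in WT (-0.76 ± 0.23, adjusted p = 0.0132). It lost the call without RIPK1 D138N replicate 3, where the difference was -0.66 (adjusted p = 0.0569). Without the libraries that hold Xist, which leaves 1 RIPK1 D138N library, the Rpl12 difference was -0.67. Rpl36, a small protein of the large subunit, held 534, 590 and 517 FPKM in RIPK1 D138N, against 293, 343 and 303 FPKM in WT. Rpl39, which lines the tunnel through which the new protein leaves, held 267, 199 and 225 FPKM in RIPK1 D138N, against 123, 151 and 121 FPKM in WT. Neither pair of groups overlapped, and both genes were 1.75 times as high in RIPK1 D138N by their means (adjusted p = 0.0120 and 0.00581). Both differences were 0.03 on the TPM scale, and Rpl36 was called in 2 and Rpl39 in 3 of the 5 scalings. Rpl32 held 551, 433 and 505 FPKM in RIPK1 D138N, against 280, 348 and 288 FPKM in WT (0.70 ± 0.24, adjusted p = 0.0272). The difference of Rpl32 turned slightly negative on the TPM scale, at -0.07, and passed the test in 1 of the 5 scalings.

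Scaled to the family's own mean, 5 genes were lower and 4 higher in RIPK1 D138N than in WT, where 22.3% of all genes were lower and 16.8% higher. The 5 included Rpl12, Rpl5, Rplp0 and Rpsa, and the 4 included Rps27l, Rpl36 and Rpl39. Rplp0 held 276, 274 and 207 FPKM in RIPK1 D138N, against 292, 285 and 328 FPKM in WT, and its difference on that scale was -0.54 ± 0.18 (adjusted p = 0.0269). In deposited FPKM Rplp0 differed by -0.27 ± 0.21 (adjusted p = 0.298), and Rplp1, Rplp2 and Rps6 did not pass the test there either.

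The third comparison set TNFR1/2 KO, as labelled, against WT. In deposited FPKM 4 of the 84 genes were higher and 2 lower in TNFR1/2 KO, where 29.6% of all genes were higher and 17.5% lower. The family median was 0.13 and that of all genes 0.14. On the TPM scale 64 of the 84 were lower and 1 higher (family median -0.59, all genes -0.48, of which 43.8% were lower and 14.6% higher), and with the median ratio 9 were lower and 2 higher, beside 27.9% and 23.2%. Without TNFR1/2 KO replicate 3, 10 were higher and 1 lower in deposited FPKM, and without TNFR1/2 KO replicate 2 or WT library A 2 were higher. Scaled to the mean of the standard genes, 4 were higher (Rps27l, Rpl36, Rps3a2 and Rps4l) and 4 lower (Rpl12, Rpl5 and Rps3a1 among them), beside 21.3% and 10.9% of all genes.

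Rpl12 and Rpl5 were lower in TNFR1/2 KO than in WT under all 5 scalings. Rpl12 held 209, 163 and 117 FPKM in TNFR1/2 KO, against 280, 274 and 290 FPKM in WT, and differed by -0.82 ± 0.23 (adjusted p = 0.00942). Rpl5, which with Rpl11 and the small ribosomal RNA of the large subunit forms the particle known to bind the p53 regulator Mdm2, held 111, 116 and 71.1 FPKM in TNFR1/2 KO, against 182, 147 and 185 FPKM in WT. The groups did not overlap, and the difference was -0.80 ± 0.28 (adjusted p = 0.0328). Rpl5 lost the call without TNFR1/2 KO replicate 3 (-0.58, adjusted p = 0.134), without WT library A or without WT library C. In RIPK1 D138N Rpl5 held 127, 130 and 87.3 FPKM, also below every WT library, but the difference of -0.59 ± 0.28 did not pass the test (adjusted p = 0.0982). Both mutants were compared with the same WT libraries, so the values of one are not independent of the other. Among the genes higher in TNFR1/2 KO, Rpl36 held 592, 510 and 359 FPKM, against 293, 343 and 303 FPKM in WT (0.61 ± 0.24, adjusted p = 0.0484), and it lost this call under each of 5 omissions of a single library and in 3 of the 5 scalings.

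**Figure D4:**
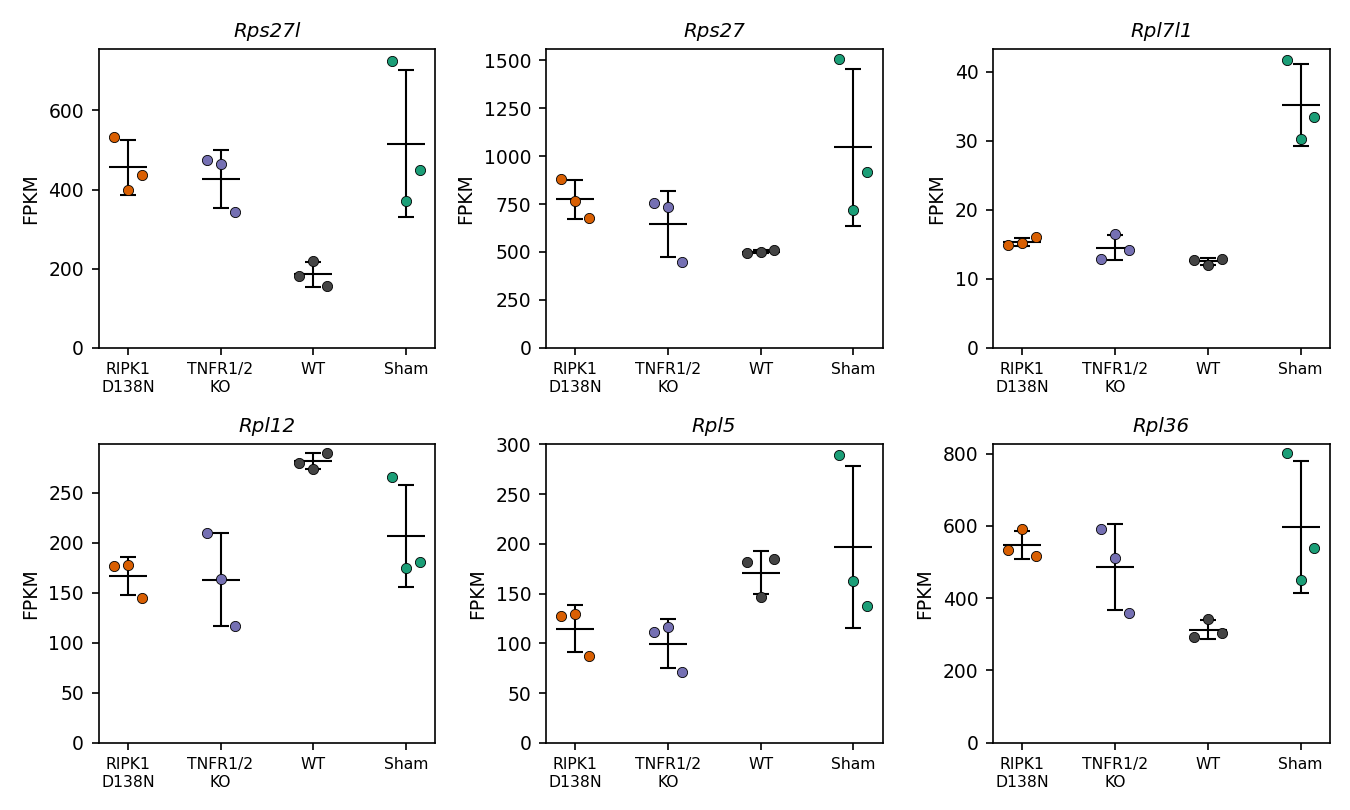
FPKM of 6 ribosomal protein genes in the 3 libraries of each group (points), with mean and SD; each panel has its own linear axis from 0. Rps27l is low in WT alone, Rpl7l1 is high in Sham alone, and Rpl12 is highest in WT.

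Set against each other, the mutants differed little in this family. In RIPK1 D138N against TNFR1/2 KO, 0 of the 84 genes were higher and 1, Rps3a2, was lower, where 0.350% of all genes were called higher and 0.580% lower. At an unadjusted p under 0.05, 1 was higher and 1 lower, without the share of all genes at that threshold beside it. The median difference was 0.20, beside -0.05 for all genes, and it was -0.0002 without TNFR1/2 KO replicate 3. A p that misses the threshold does not show equal levels.

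Both mutants share the Sham libraries as a control. In RIPK1 D138N 3 of the 84 were lower and 0 higher, where 22.7% of all genes were lower and 7.51% higher; at an unadjusted p under 0.05, 0 were higher. The 3 were Rpl7l1, Rpl3 and Rpl22l1, and the family median was -0.25 beside -0.22 for all genes. In TNFR1/2 KO 13 were lower and 1, Rps3a2, higher, where 18.1% of all genes were lower and 7.46% higher, and the median was -0.41 beside -0.18. Without TNFR1/2 KO replicate 3 the count was 3 lower and 0 higher, and without Sham library A 3 lower and 1 higher. Without TNFR1/2 KO replicate 1, Sham library C or Sham library B 7, 6 and 23 were lower. In RIPK1 D138N 6 were lower without Sham library B. On the TPM scale 5 were higher and 1 lower in RIPK1 D138N (15.6% and 5.72% of all genes), and 3 higher and 2 lower in TNFR1/2 KO (19.9% and 4.03%). Scaled by the median ratio, 13.0% of all genes were higher and 9.38% lower in RIPK1 D138N and 11.9% higher and 8.42% lower in TNFR1/2 KO, and Rpl7l1 was lower in both. Scaled to the mean of the standard genes, 0 of the 84 were higher and 1, Rpl7l1, was lower in RIPK1 D138N (5.80% and 4.50% of all genes). On that scale 1, Rps3a2, was higher and 2, Rpl7l1 and Rps3a1, were lower in TNFR1/2 KO (12.3% and 2.39%). Rpl3, a large-subunit protein near the peptidyl transferase centre, held 144, 166 and 154 FPKM in RIPK1 D138N, 122, 183 and 111 FPKM in TNFR1/2 KO and 340, 251 and 230 FPKM in Sham. It was lower than in Sham by -0.80 ± 0.21 in RIPK1 D138N (adjusted p = 0.0118) and by -0.99 ± 0.21 in TNFR1/2 KO (adjusted p = 0.00446). Its WT values of 161, 159 and 158 FPKM were likewise below every Sham library (-0.76 ± 0.21, adjusted p = 0.00688), with a reversal to 0.50 on the TPM scale for WT alone. The call against Sham was made in 2 of the 5 scalings for RIPK1 D138N and in 3 for TNFR1/2 KO. Rpl34, a large-subunit protein, was lower in TNFR1/2 KO, at 335, 363 and 230 FPKM, against 820, 403 and 473 FPKM in Sham (-0.83 ± 0.27, adjusted p = 0.0394), a call lost without Sham library A or C and without TNFR1/2 KO replicate 1 or 3, with differences of -0.52 to -0.92. It was called in 1 of the 5 scalings, the deposited FPKM, and the difference was -0.29 on the TPM scale.

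The paralogs are set beside their standard partners. Rps27l (ENSMUSG00000036781, chr9:66946086-66949516, plus strand), the paralog of Rps27 and a known target of p53, held 534, 399 and 438 FPKM in RIPK1 D138N. It held 474, 464 and 343 FPKM in TNFR1/2 KO, 183, 219 and 156 FPKM in WT and 726, 372 and 450 FPKM in Sham. Every WT library was below every other library, while the 3 remaining groups overlapped. WT was lower than Sham by -1.42 ± 0.25 (adjusted p = 0.000348). RIPK1 D138N was 2.46 times as high as WT (1.30 ± 0.25, adjusted p = 0.000874), and TNFR1/2 KO 2.30 times (1.19 ± 0.25, adjusted p = 0.00174). These directions held under all 5 scalings, and leaving out any single library lost none of the 3 calls. The difference of WT from Sham was -0.17 on the TPM scale and did not pass the test (adjusted p = 0.517), and that of TNFR1/2 KO from WT was 0.47 (adjusted p = 0.0762). Its partner Rps27 held 878, 767 and 678 FPKM in RIPK1 D138N and 756, 735 and 450 FPKM in TNFR1/2 KO, against the WT values of 496, 499 and 511 FPKM, and neither difference passed the test (adjusted p = 0.0744 and 0.345). Rps27l shared 13.7% of its 50-base words with other annotated transcripts, a low share in this family.

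Rpl7l1 (ENSMUSG00000063888, chr17:46773907-46782672, minus strand), the paralog of Rpl7 whose yeast counterpart acts in large-subunit assembly, showed another pattern. It held 14.86, 15.14 and 16.01 FPKM in RIPK1 D138N, 12.91, 16.52 and 14.18 FPKM in TNFR1/2 KO, 12.73, 11.998 and 12.83 FPKM in WT and 41.8, 30.3 and 33.5 FPKM in Sham. The Sham libraries were above all 9 others. The difference from Sham was -1.14 ± 0.16 in RIPK1 D138N (adjusted p = 0.000293), -1.21 ± 0.16 in TNFR1/2 KO (adjusted p = 0.000190) and -1.41 ± 0.16 in WT (adjusted p = 8.46e-06). Leaving out any single library kept all 3 calls, but on the TPM scale the WT difference was -0.21 (adjusted p = 0.263). Neither mutant differed from WT past the test (0.27 and 0.19, adjusted p = 0.158 and 0.323). Rpl7 itself held 284, 328 and 318 FPKM in RIPK1 D138N, 279, 296 and 200 FPKM in TNFR1/2 KO, 227, 232 and 235 FPKM in WT and 386, 300 and 328 FPKM in Sham. Only WT was below Sham past the test (-0.54 ± 0.18, adjusted p = 0.0223), and the difference was 0.72 on the TPM scale.

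Rpl22l1, the paralog of Rpl22, held 87.1, 92.8 and 81.6 FPKM in RIPK1 D138N, 104, 89.0 and 64.7 FPKM in TNFR1/2 KO, 88.1, 90.1 and 77.5 FPKM in WT and 212, 105 and 135 FPKM in Sham. All 9 libraries outside Sham were below all 3 Sham libraries, with differences of -0.72, -0.77 and -0.76 (adjusted p = 0.0395, 0.0356 and 0.0169 for RIPK1 D138N, TNFR1/2 KO and WT). Each of these 3 calls was lost without Sham library A and was made in 1 of the 5 scalings, the deposited FPKM. Rpl22 did not pass the test in any of the 6 comparisons. Rpl10, the standard partner of Rpl10l, was lower in WT than in Sham (-0.62 ± 0.22, adjusted p = 0.0270), a difference that turned to 0.64 on the TPM scale.

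The FPKM of Rps3a1, a small-subunit protein gene, must be read with those of its copies. Rps3a2, a pseudogene on chromosome 14, matched the Rps3a1 transcript at 788 of 792 aligned bases, and Rps3a3, on chromosome 13, at 786 of 795. The symbol Rps3a3 has the same form as Rps3a2, but the rule left it out by name. The window below, positions 702 to 801 of the Rps3a1 transcript, shows how few bases tell them apart, with each position at which any copy differs in capitals (GENCODE M21 transcripts, GRCm38).
Rps3a1, chr3:86137940-86142702, minus strand: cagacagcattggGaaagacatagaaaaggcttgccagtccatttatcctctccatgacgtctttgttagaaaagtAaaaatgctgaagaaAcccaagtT
Rps3a2, chr14:88123017-88123808, minus strand: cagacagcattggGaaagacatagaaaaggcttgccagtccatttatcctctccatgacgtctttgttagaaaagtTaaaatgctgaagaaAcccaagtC
Rps3a3, chr13:108670603-108671397, plus strand: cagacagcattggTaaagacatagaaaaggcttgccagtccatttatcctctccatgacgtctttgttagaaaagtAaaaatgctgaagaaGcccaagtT
The coordinates are those of the whole genes. Of the 50-base words of the Rps3a1 transcript, 71.0% occur in other annotated transcripts, and 61.4% occur in Rps3a2.

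Rps3a1 was listed at 359, 338 and 353 FPKM in RIPK1 D138N, 196, 232 and 62.9 FPKM in TNFR1/2 KO, 267, 279 and 268 FPKM in WT and 474, 360 and 412 FPKM in Sham. The TNFR1/2 KO libraries were the lowest 3 of the 12. Rps3a2 was listed at 13.6, 6.19 and 10.8 FPKM in RIPK1 D138N, 21.9, 31.4 and 31.2 FPKM in TNFR1/2 KO, 4.33, 6.21 and 4.25 FPKM in WT and 15.2, 11.5 and 15.5 FPKM in Sham. Rps3a3 was listed at 88.5, 99.1 and 123 FPKM in TNFR1/2 KO and at 8.38 to 18.9 FPKM in the other 9 libraries. The share of Rps3a1 in the sum of the 3 copies was 63.9, 64.0 and 28.9% in TNFR1/2 KO and 92.3 to 95.6% in the other 9. Taken alone, Rps3a1 was lower in TNFR1/2 KO than in Sham (-1.53 ± 0.36, adjusted p = 0.00880), and Rps3a2 was higher in TNFR1/2 KO than in WT (2.30 ± 0.25, adjusted p = 1.42e-05) and than in Sham (0.95 ± 0.25, adjusted p = 0.0171). Against TNFR1/2 KO, Rps3a2 was lower in RIPK1 D138N (-1.42 ± 0.25, adjusted p = 0.0223).

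With the 3 copies added together after seeing the data, the sum was 384, 354 and 376 FPKM in RIPK1 D138N, 306, 362 and 217 FPKM in TNFR1/2 KO, 280, 295 and 280 FPKM in WT and 507, 382 and 447 FPKM in Sham. The sum in TNFR1/2 KO differed from WT by 0.02 ± 0.20 (adjusted p = 0.945) and from Sham by -0.61 ± 0.20 (adjusted p = 0.0373). In RIPK1 D138N it differed from TNFR1/2 KO by 0.36 ± 0.20 (adjusted p = 0.508). Rps4l, a pseudogene of the small-subunit gene Rps4x, was listed at 23.3, 16.9 and 27.0 FPKM in RIPK1 D138N, 20.6, 41.0 and 18.3 FPKM in TNFR1/2 KO, 10.3, 15.5 and 13.8 FPKM in WT and 37.7, 34.9 and 33.4 FPKM in Sham. It was lower in WT than in Sham (-1.37 ± 0.27, adjusted p = 0.000869), while Rps4x differed past the test in none of the 6 comparisons in deposited FPKM.

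**Figure D5:**
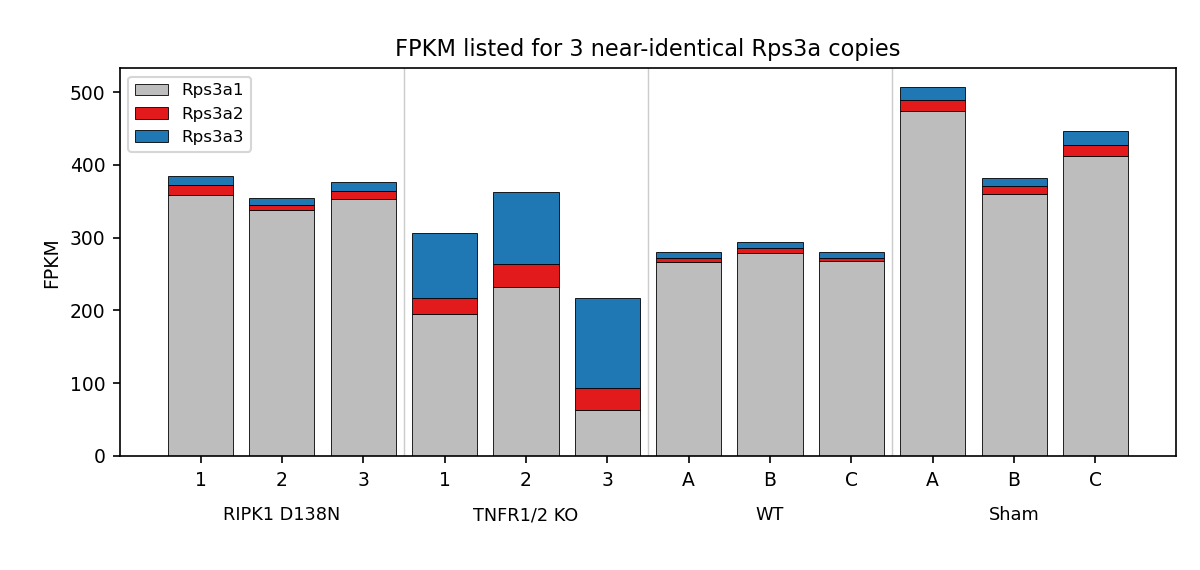
FPKM listed for Rps3a1, Rps3a2 and Rps3a3 in each library, stacked from 0. In TNFR1/2 KO the bars hold 28.9 to 64.0% Rps3a1, against 92.3 to 95.6% in the other 9 libraries.

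Shared sequence is common across the family. A standard transcript shared a median of 43.9% of its 50-base words with other annotated transcripts, from 0% to 86.7% for Rps18, and 28 of the 77 shared more than 50%. The 13 standard genes with under 20% shared had a median difference of -0.44 in WT against Sham, with 5 lower, and the 18 with over 70% shared a median of -0.57, with 11 lower. Of all genes tested, 41.9% were called lower in that comparison, and whether these sets differed was not tested. A further 290 entries, each named as a gene of this family followed by -ps, held 3.37 to 5.24% of the family's summed FPKM. They were largest for Rps19, where they reached 68.8% of the gene's own mean FPKM. Entries under other names that share sequence with the family were not summed, such as Gm10275, which held 49.0% of the 50-base words of Rpl12.

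Other genes of the translation machinery were counted from 4 lists. Their counts stand beside those of all genes tested in deposited FPKM, of which 29.8% were higher and 21.9% lower in RIPK1 D138N than in WT, 29.6% higher and 17.5% lower in TNFR1/2 KO than in WT, and 16.4% higher and 41.9% lower in WT against Sham. Of 44 ribosome biogenesis genes, 1 was higher and 31 were lower in RIPK1 D138N than in WT, with a median of -0.85. In TNFR1/2 KO 1 was higher and 28 lower (median -0.71), and in WT against Sham 13 were higher and 6 lower (median 0.24). Under the other 4 scalings 24 to 43 of the list were lower in the mutants against WT, where 10.9 to 48.1% of all genes were lower. Under the same scalings 22 to 40 were higher in WT against Sham, where 23.5 to 53.2% of all genes were higher. Myc, a transcription factor known to drive ribosome biogenesis, held 15.4, 13.4 and 11.8 FPKM in RIPK1 D138N, 17.0, 30.1 and 35.1 FPKM in TNFR1/2 KO, 55.3, 56.2 and 45.2 FPKM in WT and 2.502, 3.715 and 3.905 FPKM in Sham. WT was above all other libraries and Sham below them. Relative to WT, Myc differed by -1.88 ± 0.24 in RIPK1 D138N (adjusted p = 3.91e-05) and by -0.96 ± 0.24 in TNFR1/2 KO (adjusted p = 0.00557), and WT differed from Sham by 3.61 ± 0.24 (adjusted p = 2.12e-07). Gar1, a protein of the particles that modify ribosomal RNA, held 8.22, 6.24 and 7.53 FPKM in RIPK1 D138N, 3.87, 11.9 and 9.39 FPKM in TNFR1/2 KO, 31.7, 59.3 and 30.5 FPKM in WT and 9.69, 14.3 and 12.5 FPKM in Sham. Its particle partner Nop10 ran the other way, at 49.2, 37.6 and 39.7 FPKM in RIPK1 D138N, 50.3, 41.8 and 31.1 FPKM in TNFR1/2 KO, 19.6, 23.4 and 22.4 FPKM in WT and 58.7, 37.9 and 48.3 FPKM in Sham. Both passed the test in each mutant against WT and in WT against Sham, Gar1 lower in the mutants and higher in WT, Nop10 higher in the mutants and lower in WT.

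Of 22 other genes with TOP-type mRNAs, 2 were higher and 7 lower in RIPK1 D138N than in WT, 1 was higher and 6 lower in TNFR1/2 KO, and in WT against Sham 5 were higher and 8 lower. Of all genes, 21.9% were lower in RIPK1 D138N and 17.5% in TNFR1/2 KO than in WT, and WT against Sham had 16.4% higher and 41.9% lower. Fau, whose product is part of the small subunit, did not pass the test in either mutant against WT (adjusted p = 0.301 and 0.958). Eef2, the translocation factor of elongation, was lower in RIPK1 D138N, at 173, 309 and 224 FPKM, against 410, 411 and 435 FPKM in WT (-0.87 ± 0.25, adjusted p = 0.0108).

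Of 28 other initiation factors, 1 was higher and 11 lower in RIPK1 D138N than in WT, 1 was higher and 7 lower in TNFR1/2 KO, and in WT against Sham 3 were higher and 11 lower, a split that became 23 higher and 0 lower on the TPM scale, where 53.2% of all genes were higher and 10.1% lower. In deposited FPKM 21.9% of all genes were lower in RIPK1 D138N and 17.5% in TNFR1/2 KO than in WT, and 41.9% in WT than in Sham. Eif6, which keeps the large subunit from joining the small one, held 40.8, 27.4 and 25.2 FPKM in RIPK1 D138N, 23.9, 50.1 and 36.1 FPKM in TNFR1/2 KO, 104, 122 and 119 FPKM in WT and 72.7, 60.9 and 76.7 FPKM in Sham. It was lower than WT in RIPK1 D138N (-1.87 ± 0.25, adjusted p = 5.11e-05) and in TNFR1/2 KO (-1.67 ± 0.25, adjusted p = 0.000140). Of the 23 tested among 24 regulators of mTORC1 and eIF4E, 4 were higher and 7 lower in RIPK1 D138N than in WT, 6 higher and 5 lower in TNFR1/2 KO, and in WT against Sham 7 were higher and 5 lower, beside 16.4% and 41.9% of all genes in that last comparison. Against WT, 29.8% of all genes were higher and 21.9% lower in RIPK1 D138N, and 29.6% and 17.5% in TNFR1/2 KO. Eif4ebp1, the repressor of cap-dependent initiation that mTORC1 inactivates, held 41.6, 26.5 and 30.8 FPKM in RIPK1 D138N, 41.1, 38.2 and 30.6 FPKM in TNFR1/2 KO, 113, 127 and 116 FPKM in WT and 56.7, 49.5 and 64.5 FPKM in Sham. Its difference from WT was -1.84 ± 0.19 in RIPK1 D138N (adjusted p = 6.85e-06) and -1.68 ± 0.19 in TNFR1/2 KO (adjusted p = 1.62e-05). Between RIPK1 D138N and TNFR1/2 KO 0 genes of the 4 lists passed the test with limma, where 0.350% of all genes were called higher and 0.580% lower. At an unadjusted p under 0.05, in either direction, there were 8 of the biogenesis list, 2 of the initiation factors, 1 of the regulators and 0 of the TOP-type genes. The share of all genes at that unadjusted threshold is not given, so these counts are not read as a difference between the mutants.

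The differences also went with transcript length. Across the 77 standard genes, Spearman's rho between transcript length and the log2 difference was -0.43 in RIPK1 D138N against WT, -0.41 in TNFR1/2 KO against WT and 0.27 in WT against Sham, beside -0.30, -0.27 and 0.31 across 11724 genes. These are descriptions across genes, which share the libraries and are not replicates. Length was that of the longest annotated transcript of a gene, whatever its type. By it the median standard gene was 1094 bases, against 2893 bases for all genes tested. It can exceed the length of the coding transcript. Rpl12 was taken at 2863 and Rpl35a at 2858 bases, where their longest coding transcripts held 1242 and 519 bases. The removal of the length trend rests on the same lengths. With the trend with length removed, 10 ribosomal protein genes were lower and 2 higher in RIPK1 D138N (25.3% and 25.5% of all genes), 21 lower and 2 higher in TNFR1/2 KO (24% each), and 4 lower and 10 higher in WT against Sham (27.5% and 25.8%). Against Sham, 2 were lower and 0 higher in RIPK1 D138N (12.8% and 13.8%), and 4 lower and 1 higher in TNFR1/2 KO (11.8% and 12.8%).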

How the data were processed

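RNA from 12 mouse liver libraries was sequenced, 3 in each of 4 groups. The authors deposited FPKM per gene. Per the submitters' processing notes, STAR 2.5.4a, Cufflinks 2.2.1 and Cuffdiff were used with the mm10 genome; their settings and the use of strand are not given in the sources used here, so overlapping genes and near-identical copies are uncertain. No counts were used, and depth is unknown. Of the sample columns, 0 were left unused.

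Gene types, lengths and 50-base words came from GENCODE M21 and start windows from RefSeq GRCm38.p6. Lengths were those of the longest annotated transcript of any type. The 11728 genes that reached 1 FPKM in 3 or more libraries were fitted as log2(FPKM + 1) with limma 3.58.1 (R 4.3.3, 4 group means, trended variance), with Benjamini-Hochberg adjustment and a threshold of 0.05. Fold changes are on that scale, which understates changes of low genes. The fit was tested on simulated data. The ribosomal protein genes and lists were chosen with earlier results of these data known. Named genes were the 6 largest called rises and falls per comparison without overlap and with at least 5 FPKM, the stalk proteins, Rpsa, Rps6, the paralog pairs and the highest and lowest genes; Rpl10a and genes of the other lists were named after their values were seen. Alternatives changed the pseudocount, filter, scaling, length trend, pseudogene entries, groups fitted and libraries. The scaling to the standard genes and the summed Rps3a copies were added after seeing the data. A few genes that the rule or lists would name are not reported here.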

Additional observations from a re-analysis of the deposited data

Results flagged for a closer look

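Rps3a2 differed between the 2 mutant groups, at -1.42 on the log2 scale in RIPK1 D138N against TNFR1/2 KO (limma adjusted p = 0.0223), a comparison within which the groups did not overlap. The call was lost without RIPK1 D138N replicate 2 or 3 and without TNFR1/2 KO replicate 2 or 3. Its FPKM cannot be told apart from those of its near-identical copies, and the part of the copies in this difference was not tested beyond the sum given above.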

How the results depend on the processing

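Counts are of ribosomal protein genes called higher and lower. For the fits with no filter, with only 2 groups or without some libraries, the share of all genes called is not given. Changes in those counts cannot be read as particular to this family. On the TPM scale they were 64 and 0 in WT against Sham, 1 and 38 in RIPK1 D138N against WT, 1 and 64 in TNFR1/2 KO against WT, 5 and 1 in RIPK1 D138N against Sham, and 3 and 2 in TNFR1/2 KO against Sham. With the median ratio they were 3 and 4 in WT against Sham, 3 and 2 in RIPK1 D138N and 2 and 9 in TNFR1/2 KO against WT, with 1 and 3 lower against Sham. With the length trend removed they were 10 and 4, 2 and 10, and 2 and 21 in the first 3 comparisons, with 4 lower in TNFR1/2 KO against Sham. Scaled to the standard genes they were 3 and 5, 4 and 5, and 4 and 4, with 1 and 2 lower against Sham. With no filter they were 7 higher in RIPK1 D138N and 2 and 1 in TNFR1/2 KO against WT, 0 and 4 in TNFR1/2 KO against Sham, and 0 lower between the mutants. With only the 2 groups compared they were 27 and 2 in RIPK1 D138N against WT, 3 lower in TNFR1/2 KO against Sham and 0 lower between the mutants. Without the libraries that hold Xist, RIPK1 D138N had 3 and 0 against WT, 1 lower against Sham and 0 lower against TNFR1/2 KO. Leaving out 1 library gave 0 to 1 higher and 25 to 53 lower in WT against Sham, 5 to 16 and 0 to 1 in RIPK1 D138N and 2 to 10 and 1 to 3 in TNFR1/2 KO against WT, 0 to 1 lower between the mutants, 2 to 6 lower in RIPK1 D138N against Sham, and 0 to 1 and 3 to 23 in TNFR1/2 KO against Sham. Without mitochondrial genome entries the family's share was 6.36, 6.26 and 6.002% in RIPK1 D138N and 8.07, 8.76 and 8.31% in WT. In WT against Sham these differences reversed on the TPM scale: Rpl10 0.64, Rpl22l1 0.50, Rpl3 0.50, Rpl32l 0.22, Rpl39 0.40, Rpl41 0.40, Rpl6l 0.53, Rpl7 0.72, Rplp1 0.61, Rps18 0.18, Rps27 0.27 and Rps6 0.70. With the length trend removed Rpl10 reversed to 0.16, Rpl6l to 0.17, Rpl7 to 0.10, Rplp1 to 0.13 and Rps6 to 0.20, and with the median ratio Rpl7 to 0.032 and Rps6 to 0.014. On the TPM scale Rpl32 and Rps4l reversed to -0.074 and -0.019 in RIPK1 D138N against WT, and Rpl36 to -0.11 in TNFR1/2 KO against WT. The cause was not tested.

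Replicate numbers allowed a replicate block only between the mutants, where it gave 0 higher and 0 lower. Same-numbered libraries correlated at -0.0975, -0.202 and 0.0574 in their deviations, so the numbers were not taken as pairs.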
